A study of Drosophila melanogaster with 2 samples.

Results

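The 8 homeotic (Hox) genes of Drosophila melanogaster were examined for binding of toy-eGFP in whole embryos. These are lab, pb, Dfd, Scr and Antp of the Antennapedia complex and Ubx, abd-A and Abd-B of the bithorax complex, 8 of the 13968 protein-coding genes annotated on the 7 chromosome arms. The genes were taken by name. A peak was given to a gene when its summit lay inside the gene or when the nearest protein-coding transcription start site (TSS) belonged to it, so 1 peak can be given to more than 1 gene. Chromatin immunoprecipitation sequencing (ChIP-seq) with an anti-GFP antibody had been done on transgenic flies of the strain toy-GFP, in which an insertion targets toy, at 0 to 24 h of embryonic age and in 2 biological replicates. The sources used here do not give the regulatory sequence that drives the fusion or the number of embryos per collection. There is a single group and no contrast between conditions, and the possible control named in the labels was not analysed here. Whole embryos mix all cell types, so a site bound in few cells and a site bound weakly in many cells cannot be told apart.

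Hox genes encode homeodomain transcription factors that give segments along the head-to-tail axis their identity. In Drosophila they lie in a pair of complexes on chromosome arm 3R, and Polycomb group proteins keep them silent where they should be off while trithorax group proteins keep them active. Twin of eyeless (toy) belongs to the Pax6 family, has a paired domain and a homeodomain, and is known for its place at the top of eye development in the head. The first genes of the Antennapedia complex, lab, pb and Dfd, act in head segments and mouthparts. Scr acts in the labial and the first thoracic segment, Antp in the thorax, Ubx in the posterior thorax and the anterior abdomen, abd-A in the abdomen and Abd-B in its posterior segments and the genitalia.

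The deposited peaks were scored by their irreproducible discovery rate (IDR), a measure of how well the rank of a peak repeats between 2 peak sets. Thresholded lists stop at a global IDR of 0.01, and ranked lists hold far more and mostly weak peaks. On the arms there were 1402 peaks in the conservative list made from both replicates, and replicates 1 and 2 had 925 and 1066 thresholded and 80746 and 112917 ranked peaks there. The ranked list that contains the conservative peaks held 126842. Peak lists do not give read depth, which is unknown. Signal is the authors' value per peak, on a scale that the labels and headers do not state.

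The following 5 windows show the DNA under the sites on which the results turn, each with 100 bases on both sides of the summit, from the plus strand of the RefSeq Release 6 assembly (dm6). They are the abd-A site that passed the threshold, the strongest ranked sites of Antp and Abd-B, which came closest to it, the strongest ranked site of Dfd, which is rich in GAGAG, and the bxd site that passed in replicate 1 alone. Only the first follows the rule set for showing windows, and the others were chosen after their values were seen. Capitals mark TAATTA (homeodomain core), GAGAG (GAGA factor), GCCAT (Pho), TATCGATA (DRE) and TTTATG (Abd-B type) on either strand, with overlapping matches counted.
abd-A, chr3R:16834700-16834900: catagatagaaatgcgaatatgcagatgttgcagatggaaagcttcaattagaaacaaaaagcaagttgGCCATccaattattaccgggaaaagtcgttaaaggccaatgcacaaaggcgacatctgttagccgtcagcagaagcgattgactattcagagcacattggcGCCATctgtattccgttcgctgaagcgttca
Antp, chr3R:6912437-6912637: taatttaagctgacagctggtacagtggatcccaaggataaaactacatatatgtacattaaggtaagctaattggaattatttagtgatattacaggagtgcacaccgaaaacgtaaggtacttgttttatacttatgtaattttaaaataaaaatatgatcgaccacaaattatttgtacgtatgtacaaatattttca
Abd-B, chr3R:16961446-16961646: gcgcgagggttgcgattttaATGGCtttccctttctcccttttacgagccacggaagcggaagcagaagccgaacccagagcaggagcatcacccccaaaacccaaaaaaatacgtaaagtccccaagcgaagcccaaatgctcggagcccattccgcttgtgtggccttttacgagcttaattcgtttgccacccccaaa
Dfd, chr3R:6810691-6810891: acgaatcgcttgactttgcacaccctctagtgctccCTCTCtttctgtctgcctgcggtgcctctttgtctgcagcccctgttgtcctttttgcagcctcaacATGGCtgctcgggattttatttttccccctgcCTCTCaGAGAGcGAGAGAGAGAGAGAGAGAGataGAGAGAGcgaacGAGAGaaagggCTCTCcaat
bxd, chr3R:16764186-16764386: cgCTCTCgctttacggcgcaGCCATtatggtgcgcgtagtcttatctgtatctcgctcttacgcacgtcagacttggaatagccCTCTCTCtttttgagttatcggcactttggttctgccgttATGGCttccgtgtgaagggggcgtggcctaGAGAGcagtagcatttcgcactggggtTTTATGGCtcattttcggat
The abd-A window held 2 GCCAT, the core of the motif of the Polycomb recruiter Pho, and 1 match to the paired domain consensus with up to 2 mismatches, which is not capitalised. The Antp window held none of the 6 motifs searched, and the Abd-B window held 1 GCCAT. The Dfd window held 15 overlapping GAGAG and 1 GCCAT. The bxd window held 4 GAGAG, 3 GCCAT and 1 TTTATG.

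Only abd-A among the 8 Hox genes had a peak in the conservative list, 1 of 8 genes, where 9.06% of all protein-coding genes had one. None had a peak in the pooled thresholded list of the series, where the share of all genes was 11.7%. None had one in the thresholded list of replicate 1, against 6.18% of all genes, nor in that of replicate 2, against 7.23%. Hox genes are long, and among the 1873 protein-coding genes at least as long as Dfd, the shortest of them at 10.6 kb, 24.6% had a conservative peak. With 8 genes, a count of 1 stands near both shares of the conservative list, and no test was made of it.

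The abd-A peak lay on 3R from 16834630 to 16834969 with its summit 4751 bp upstream of the nearest abd-A TSS, outside the gene. The summit fell in an intron of lncRNA:iab8, a non-coding RNA gene of the bithorax complex, and of the protein-coding gene MSAmiP, to which the same peak was also given. Its signal was 72.5 in the series list, 34.1 in replicate 1 and 40.7 in replicate 2. It was the strongest ranked site of abd-A in the series list and in both replicates alone. Within the conservative list it was weak, rank 1212 of 1402 by signal, where the median was 106, although 98.9% of all ranked peaks of the series were weaker. Its global IDR was 0.00675 in the series list, 0.183 in replicate 1 and 0.0129 in replicate 2. Its IDR in the other ranked list of the series, the one that goes with the pooled list, was 0.703. It was thus 1 of 69 conservative peaks (4.92%) that do not overlap a pooled peak, and 1 of 342 (24.4%) in neither replicate's own thresholded list.

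The next Hox sites by IDR in the series list stayed above the threshold of 0.01, and neither replicate alone passed it at them. At Antp, which specifies thoracic identity, the peak from 6912367 to 6912706 had the highest signal of any Hox site, 76.5 in the series list, 28.3 in replicate 1 and 36.5 in replicate 2, with an IDR of 0.0196 in the series list. It lay in an intron 20303 bp from the nearest Antp TSS, also under CG46458, a protein-coding gene annotated on the same strand. At Abd-B, which specifies the posterior abdomen, an intronic peak from 16961376 to 16961715 had signals of 58.3, 32.2 and 29.5 in the series, replicate 1 and replicate 2 lists and an IDR of 0.0197. A second Abd-B peak from 16958242 to 16958581 had 43.3, 29.4 and 30.5 and an IDR of 0.0248. The IDRs in replicates 1 and 2 were 0.503 and 0.112 at the Antp site. They were 0.338 and 0.139 at the first Abd-B site and 0.126 and 0.802 at the second. In the other ranked list the same first Abd-B site came closest, at an IDR of 0.0104, followed by the lab promoter site at 0.0117 and the Antp site at 0.0170. The lab site had an IDR of 0.782 in the main ranked list, no peak in replicate 1 and an IDR of 0.929 in replicate 2. The signals of these sites were thus not all below that of abd-A, and the order of closeness changed with the list.

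Both complexes held many weak ranked peaks and almost no thresholded ones. Across the whole intervals, from the first to the last Hox gene, the Antennapedia complex (3R, 6661427 to 6999228, 338 kb) had 0 conservative peaks and the bithorax complex (3R, 16656623 to 16972236, 316 kb) had 1. Their lengths at the arms' mean spacing would hold 3.44 and 3.22. Thresholded peaks inside the complexes numbered 1 in the conservative list, 1 in the list of replicate 1, and 0 in both the pooled list and the list of replicate 2. The plot of signal along the complexes shows each ranked peak with the Hox genes beneath.

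**Figure D1:**
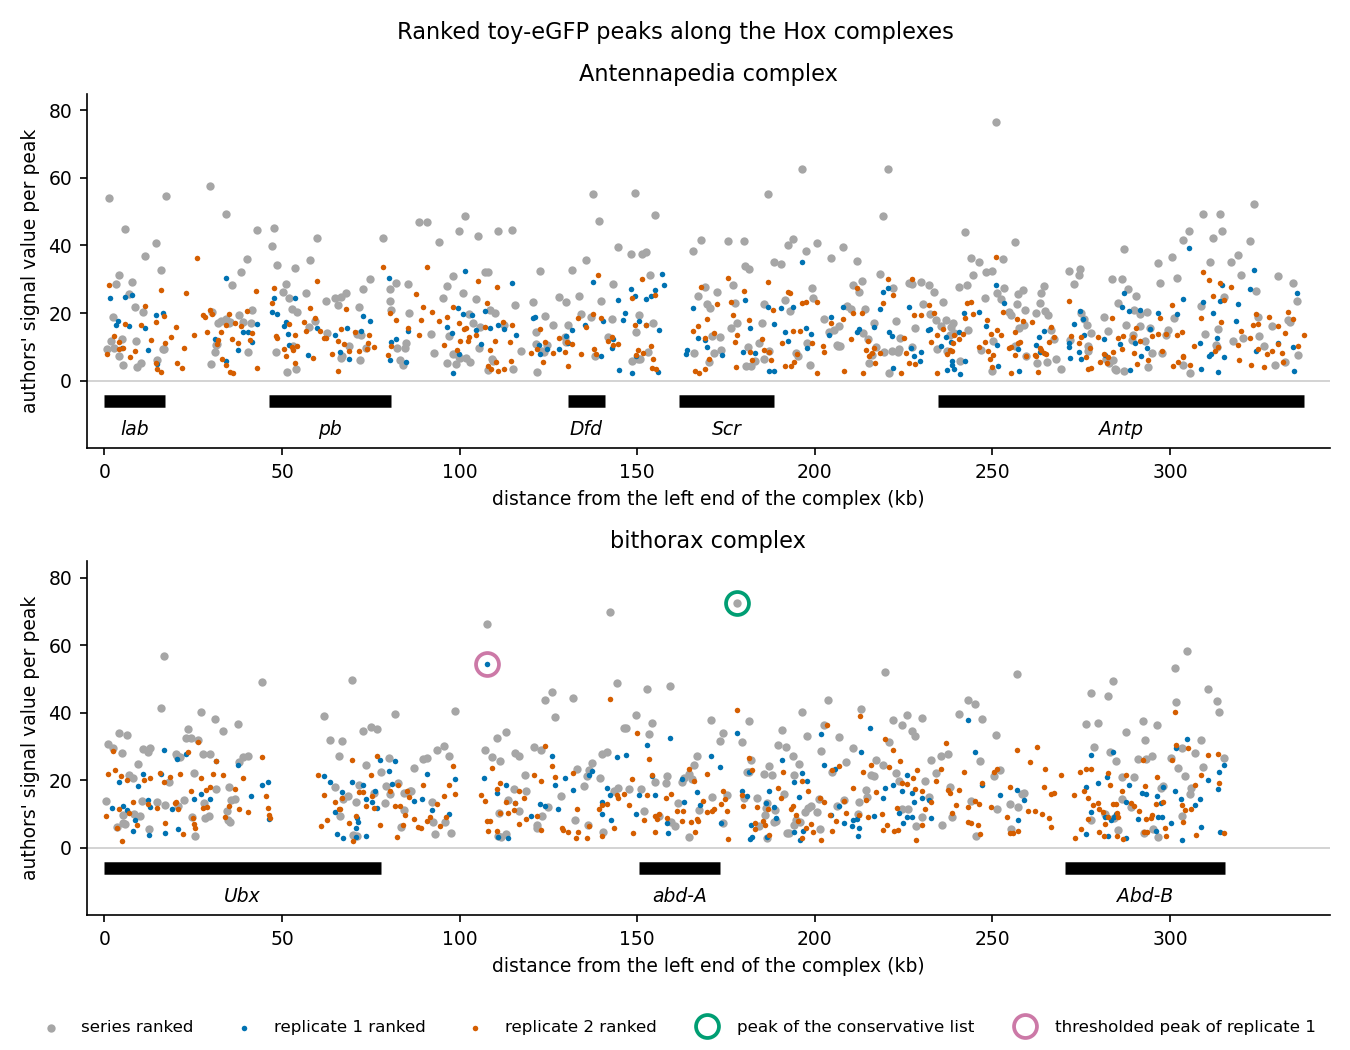
Signal value of each ranked peak (y axis, authors' units) by distance from the left end of each complex in kb (x axis), for the series ranked list in grey, replicate 1 in blue and replicate 2 in orange, with black bars for the Hox genes. The circled points are the conservative abd-A peak at 72.5 and the replicate 1 thresholded peak at 54.3, and every other peak passed no threshold.

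The single thresholded peak of replicate 1 in the bithorax complex lay from 16764128 to 16764443, in an intron of lncRNA:bxd, a non-coding RNA gene of the Ubx regulatory region. Its nearest protein-coding TSS was that of CG31275, 12952 bp away, so it counted for no Hox gene. Replicate 1 gave it a signal of 54.3 with an IDR of 0.00875, replicate 2 gave 7.92 with an IDR of 0.929, and the series list gave 66.3 with an IDR of 0.793. The replicates thus stood far apart at the site that was the strongest of the complex in replicate 1. The strongest ranked peak of replicate 2 in the complex was another, from 16798711 to 16799050 in the series list, with 15.6 in replicate 1, 44.2 in replicate 2 and 69.7 in the series list. It was given to Glut3, a glucose transporter family gene, and not to a Hox gene.

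The Antennapedia complex lay in a wide stretch without conservative peaks. The flanking summits stood at 6424108 and 7067253, a gap of 643 kb, and 8 of the 1396 gaps between neighbouring conservative summits on the arms were at least as wide. The median gap was 36.6 kb. In the bithorax complex the abd-A peak divided the interval, and the wider of the gaps beside it measured 337 kb, with 48 gaps at least as wide. In the pooled list, which lacks that peak, the gap around the bithorax complex was 489 kb, with 16 of 1876 gaps at least as wide. A gap that spans an empty complex cannot be shorter than the complex itself, at 338 kb for Antennapedia and 316 kb for bithorax. The place of such a gap among all gaps is thus a description only and does not measure rarity. The first conservative summit to the right of the bithorax complex was 14.4 kb from its end.

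Placed side by side along the arms, 85 of 402 windows of the length of the Antennapedia complex (21.1%) also held 0 conservative peaks. Among the 101 windows with at least its 390 ranked peaks, 8 (7.92%) held 0. For the bithorax complex, 135 of 433 windows of its length (31.2%) held at most 1, and 40 of the 247 windows with at least 315 ranked peaks (16.2%) did so. Windows of this length with so few thresholded peaks were therefore common on the arms and less so among windows as rich in ranked peaks, and no test was made.

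**Figure D2:**
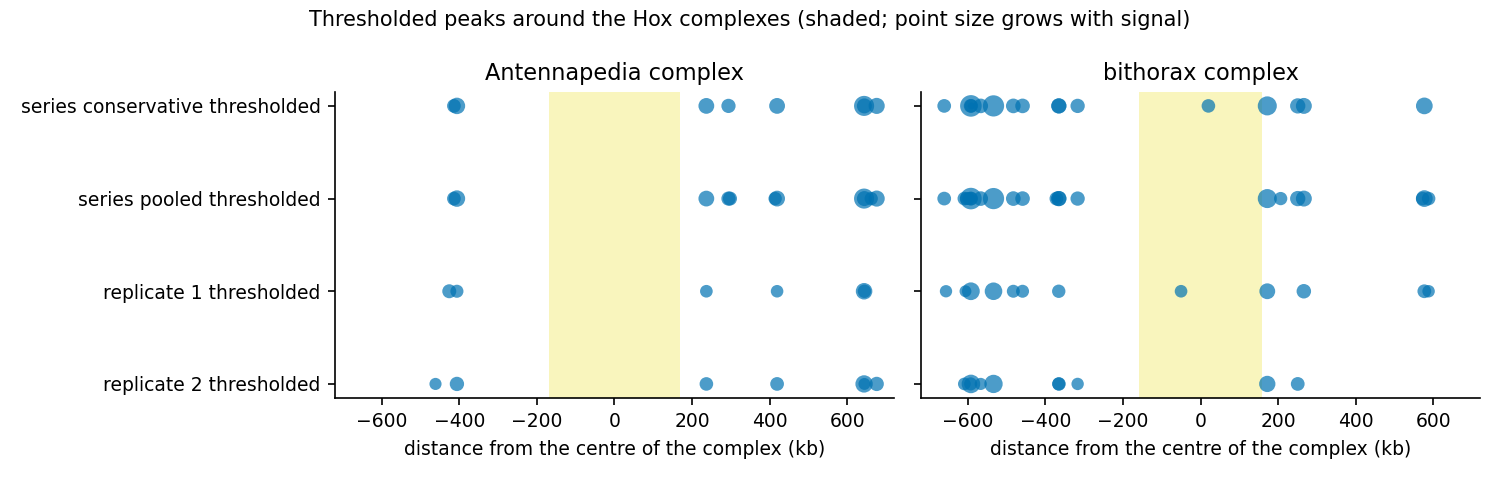
Thresholded peaks of each list (rows) by distance from the centre of each complex in kb (x axis), with the complex shaded and the point size growing with signal. The Antennapedia complex is empty in all 4 lists, while the bithorax complex holds 1 conservative peak and 1 peak of replicate 1.

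By the rule, the Hox genes had 511 ranked peaks in the series list, 291 in replicate 1 and 480 in replicate 2. Antp had the most with 162, and 31 protein-coding genes had more. Ubx had 86, abd-A 71, Abd-B 48, Dfd 42, Scr 39, pb 38 and lab 25, where the median gene had 5. Genes of different length are better compared per kb of gene. There lab had 1.40 peaks inside the gene per kb (95% Poisson interval 0.896 to 2.08), Antp 1.25 (1.05 to 1.49) and Scr 1.19 (0.815 to 1.68). The density was 1.08 in pb, 1.01 in abd-A, 0.999 in Abd-B, 0.977 in Ubx and 0.944 in Dfd. This order did not hold in the replicates, where Abd-B was densest, at 0.844 in replicate 1 and 1.27 in replicate 2, and lab had 0.699 and 1.11. In the series list the intervals of all 8 genes overlapped each other, and the density over all arms was 0.922. Intervals of this kind and the Wilson intervals given for shares cover counting error only.

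The Hox peaks that reached the threshold were 1 of 511 (0.196%, Wilson 95% interval 0.0346 to 1.10%) in the series list, where 1449 of 126842 ranked peaks on the arms (1.14%, 1.09 to 1.20%) did so. They were 0 of 291 in replicate 1, against 1.19% of all its peaks. A count of 0 allows a share of up to 1.03% there by 3 counts of the total, and the Wilson interval ends at 1.30%. In replicate 2 they were 0 of 480, against 0.988% of all its peaks, with limits of 0.625% and 0.794%. The Hox share was thus lower than that of the arms in each list. Its interval ended below the arms' share in the series list and in replicate 2, and included it in replicate 1. In the series list it just touched the arms' interval. The median signal of the Hox peaks was 20.3 in the series list, 14.4 in replicate 1 and 12.3 in replicate 2, against 19.5, 14.5 and 12.4 over all ranked peaks. The typical Hox peak was as strong as the typical ranked peak of the same list to within 1 unit.

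Each Hox gene is described by its strongest ranked peak, which was the highest of 25 to 162 peaks and so depends on their number. At lab, the strongest series peak lay at the promoter, 108 bp upstream of the TSS, with a signal of 54.6. Replicate 1 had no peak there and replicate 2 had 11.2, and their own highest lab peaks, at 25.3 and 28.4, lay elsewhere in the gene. At pb, which shapes the adult mouthparts, the highest signals were 45.1 in the series list, 30.5 in replicate 1 and 33.6 in replicate 2, at 3 different places of the gene. At Dfd, the peak shown above gave 55.6 in the series list, 25.02 in replicate 1 and 16.3 in replicate 2. It lay 18955 bp downstream of the Dfd TSS, inside the non-coding gene lncRNA:CR42651 and within 500 bp of the TSS of another non-coding gene. The replicates' own highest Dfd peaks were 31.6 and 31.4, again at other sites.

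At Scr, the strongest series peak, 55.3, lay at the promoter 267 bp downstream of the TSS, where replicate 1 had 21.8 and replicate 2 had 29.3. The highest Scr signals of the replicates alone were 23.8 and 30.3. At Antp, replicate 2 was highest at the site shown above, with 36.5, and replicate 1 was highest at another intronic site from 6966781 to 6967096, with 39.4, where replicate 2 had 4.58. At Ubx, which separates haltere from wing, the strongest series peak was intronic with 56.9, and replicate 1 had its highest Ubx signal, 28.9, at the same place. Replicate 2 had 19.5 there and its highest, 31.5, in another part of the gene. At Abd-B, replicate 1 was highest at the site shown above, with 32.2, and replicate 2 was highest at 16957778 to 16958073, with 40.3, where replicate 1 had 16.9. Both replicates thus shared their strongest site at abd-A and at no other Hox gene. The abd-A site had already passed a threshold on IDR, a measure of repeated rank, so this is no separate support for it.

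By highest series signal the order was Antp, abd-A, Abd-B, Ubx, Dfd, Scr, lab and pb. Of the 7 neighbouring pairs in this order, 3 stood in the same order in both replicates, namely abd-A over Abd-B, Abd-B over Ubx and Dfd over Scr. The replicates put 3 others, Antp and abd-A, Ubx and Dfd, and Scr and lab, in different orders. In both replicates pb stood above lab, against the series order, at 30.5 over 25.3 in replicate 1 and 33.6 over 28.4 in replicate 2. Of all 28 pairs of Hox genes, 23 stood in the same order in both replicates. All 8 genes were above the median highest signal over all genes with a ranked peak, 41.3, in the series list, and between 10.5% of those genes (for Antp) and 40.2% (for pb) were at or above them. In replicate 1, Scr at 23.8 was below the median of 24.3 and the other 7 were above it, and in replicate 2 all 8 were above the median of 23.6. As most genes have far fewer peaks than a Hox gene, a higher maximum is read here as a description only.

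**Figure D3:**
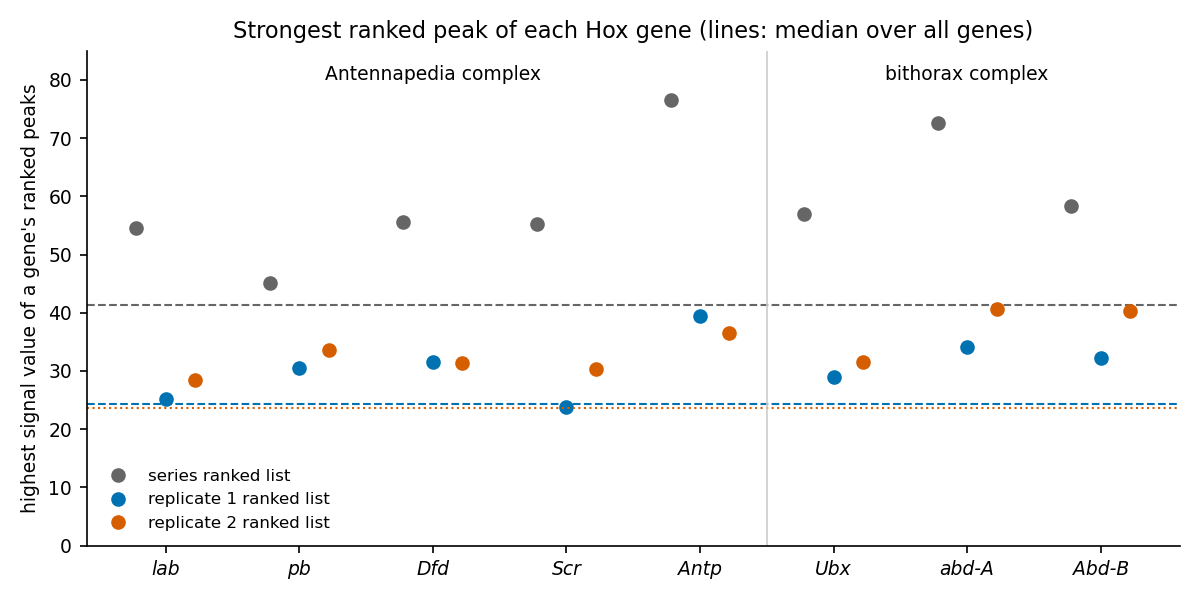
Highest signal value among the ranked peaks of each Hox gene (y axis, authors' units) in the series list (grey), replicate 1 (blue) and replicate 2 (orange), with the Antennapedia complex left of the bithorax complex and lines at the median over all genes of the same list. Antp and abd-A stand highest in the series list at 76.5 and 72.5, while the replicates' values lie between 23.8 and 40.7.

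At the promoters, within 500 bp of a TSS, the Hox genes had ranked peaks of ordinary strength. The highest promoter signal in the series list was 55.3 at Scr and 54.6 at lab, followed by Abd-B at 45.8, Antp at 34.9 and abd-A at 31.7. It was 27.0 at pb, 23.2 at Dfd and 22.4 at Ubx, where the median over the 69.0% of protein-coding genes with such a peak was 30.3. Thus 5 Hox genes were above that median and 3 below it. The 5 above it have 2 to 6 TSSs each and the 3 below it have 1 each. A highest value over several TSSs depends on their number, so the split is not read as a difference in promoter signal. The promoter values did not hold their order between replicates. Ubx had 26.1 in replicate 1 and 6.64 in replicate 2, and lab had no promoter peak in replicate 1 and 19.0 in replicate 2.

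The complexes were not shown to differ in the density of ranked peaks. The Antennapedia complex had 390 ranked peaks, 1.16 per kb (95% Poisson interval 1.04 to 1.28), and the bithorax complex 315, 0.998 per kb (0.891 to 1.12), a ratio of 1.16 with overlapping intervals. In replicate 1 the densities were 0.595 and 0.589 per kb, a ratio of 1.01. In replicate 2 they were 1.03 and 1.04, a ratio of 0.988 with the opposite sign. The SD of the ratio over the 2 replicates was 0.0153. The median signal was 19.4 in the Antennapedia complex and 21.6 in the bithorax complex in the series list, a ratio of 0.897. The ratio was 0.990 in replicate 1 and 0.974 in replicate 2. Against the arms as a whole, at 0.922 per kb in the series list and 0.821 in replicate 2, both complexes had higher densities in those lists. The interval of the bithorax complex in the series list included the arms' value, so it was not shown to be denser there. In replicate 1 the arms had 0.587. Arm 3R itself, at 0.995 per kb in the series list, was as dense as the bithorax complex.

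**Figure D4:**
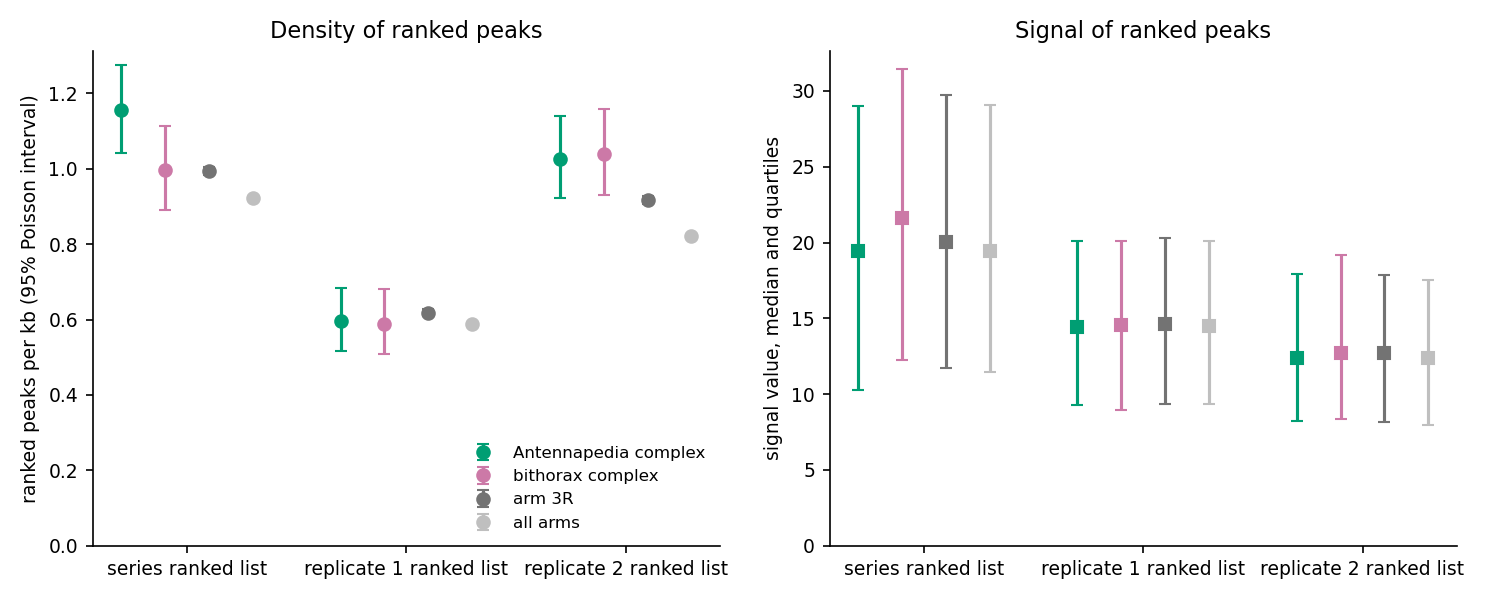
Ranked peaks per kb with 95% Poisson intervals (left) and median signal with quartiles in the authors' units (right) for the Antennapedia complex, the bithorax complex, arm 3R and all arms, in each ranked list. In the series list the complexes lie at 1.16 and 0.998 per kb with overlapping intervals, and in each replicate they lie closer together.

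Peaks of replicate 1 in the Hox genes met a peak of replicate 2 more often than elsewhere. Of 291, 222 (76.3%, Wilson 95% interval 71.1 to 80.8%) overlapped one, against 62.6% of all ranked peaks of replicate 1. In the other direction the share was 215 of 480 (44.8%, 40.4 to 49.3%), against 43.9%. The higher density of replicate 2 peaks in the complexes moved with the first of these shares, and its part in it was not tested. Signals of the replicates were only weakly related at series peaks that overlapped a peak of both. The Spearman correlation was 0.14 across 238 such Hox peaks and 0.25 across 54525 of all arms. Neighbouring series peaks can overlap the same replicate peaks, so a pair of values can count more than once. Sites of 1 pair of libraries are not independent samples.

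Most ranked peaks of the complexes were intronic, as was most of their sequence. Introns held 55.6% of the peaks of the Antennapedia complex and 65.1% of those of the bithorax complex, against 37.9% over all arms, while introns made up 54.1%, 66.6% and 39.1% of the bases. Coding sequence held 7.44% of the Antennapedia and 2.54% of the bithorax peaks, against 19.2% over all arms, where it made up 4.37%, 1.68% and 13.6% of the bases. Promoters held 15.9% of the Antennapedia and 9.52% of the bithorax peaks, against 14.5%, and made up 13.2%, 8.37% and 13.3% of the bases. On the arms, the Wilson intervals of the peak shares lay above the base shares for coding sequence and for promoters. In the Antennapedia complex this held for coding sequence (5.23 to 10.5%), while the promoter interval (12.6 to 19.9%) included the base share. In the bithorax complex the intervals for coding sequence (8 of 315 peaks, 1.29 to 4.93%) and promoters (6.75 to 13.3%) both included it. Of these classes, only Antennapedia coding sequence thus had an interval above its base share in the series list. Its peak share was 9.45% (6.1 to 14.3%) in replicate 1. In replicate 2 it was 6.05% (3.99 to 9.07%), and that interval included the base share. The excess was therefore not shown in both replicates. Some neighbouring peaks of the series list overlap each other, which the intervals do not take into account.

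Base composition under the Hox peaks was near that of all ranked peaks, while several motifs were more frequent. Windows with 100 bases on both sides of the 511 Hox summits had a median G and C content of 46.3%, where all ranked peaks had 46.8% and all conservative peaks 35.8%. Consecutive windows (tiles) had 42.3% in the Antennapedia complex, 42.3% in the bithorax complex and 42.8% on arm 3R. Peaks and tiles thus differed in base composition, and its part in the motif shares below was not tested. The GCCAT core stood in 56.8% of the bithorax windows (51.3 to 62.2%) and 44.6% of the Antennapedia windows (39.8 to 49.6%), against 41.2% of all ranked and 28.0% of all conservative windows. Consecutive windows that tile the bithorax complex held it in 45.3% (42.8 to 47.8%), those of the Antennapedia complex in 36.3% and those of arm 3R in 36.2%. TTTATG, of the Abd-B type, stood in 33.7% of the bithorax and 23.3% of the Antennapedia windows, against 18.4% of all ranked and 21.8% of all conservative windows. The tiles of the bithorax complex held it in 32.5% and those of the Antennapedia complex in 21.7%, within the intervals of the peaks of the same complex. GAGAG stood in 30.3% of the Hox windows, against 23.6% of all ranked and 23.8% of all conservative windows. The tiles of the Antennapedia complex held it in 25.1% and those of the bithorax complex in 22.3%. TAATTA stood in 10.4% of the Hox windows, against 9.54% of all ranked and 15.8% of all conservative ones. It was more frequent in the tiles of the complexes than in the Hox windows, at 15.1% for the Antennapedia and 14.5% for the bithorax complex. TATCGATA stood in 0.391% of the Hox windows, against 0.401% of all ranked and 2.21% of all conservative ones. The paired domain consensus with up to 2 mismatches, seen in the abd-A window, stood in 8.02% of the Hox windows and 10.6% of the conservative ones. It stood in 11.1% of the Antennapedia and 8.28% of the bithorax tiles. This consensus was not counted over all ranked peaks or the tiles of arm 3R, so those comparisons are missing for it. A match describes letters and not a bound site.

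**Figure D5:**
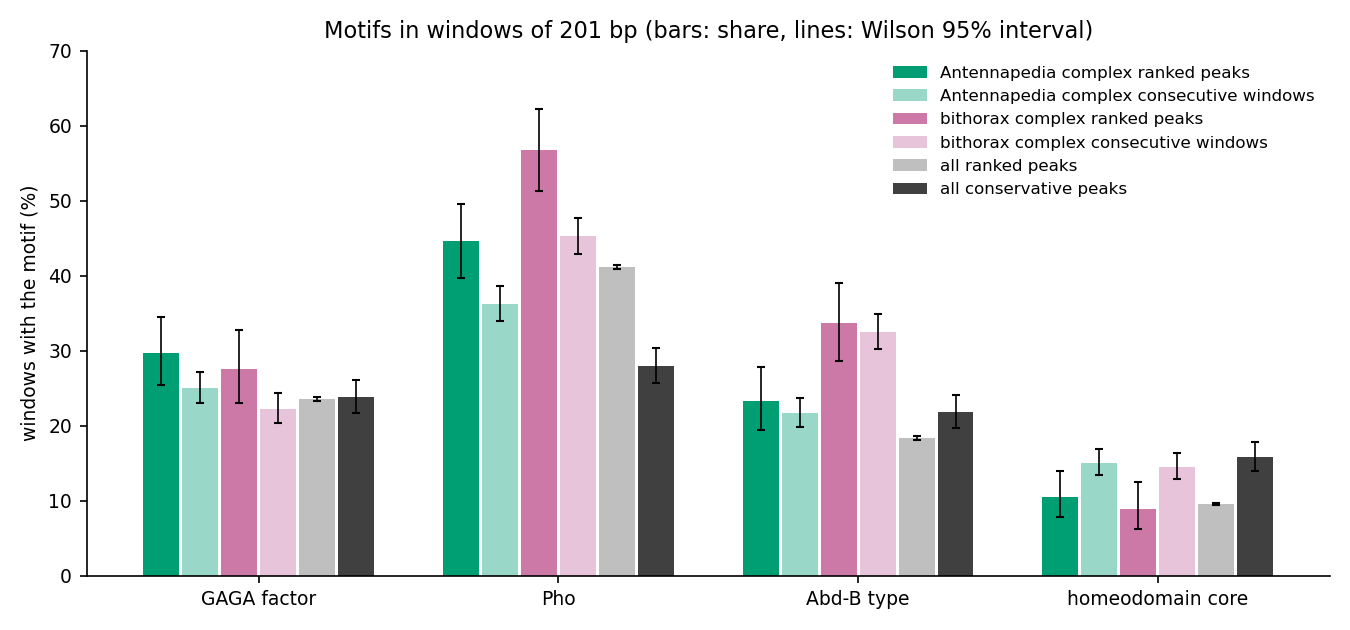
Share of windows, with 100 bases on both sides of the centre, that hold each motif on either strand (y axis, percent, with Wilson 95% intervals) for ranked peaks and for consecutive windows of each complex, for all ranked peaks and for all conservative peaks. The bithorax peaks stand highest for the Pho core at 56.8%, above the 45.3% of the windows that tile the complex, and for the Abd-B type motif peaks and tiles lie together.

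Genes that act with or on the Hox genes were counted in the same way, as lists chosen with earlier results of these data known. Of 16 Polycomb group genes found in the annotation, 4 had a conservative peak, namely ph-p with a highest signal of 706, Psc with 403, ph-d with 137 and E(z) with 123. The neighbours ph-p and ph-d are near-identical copies, so the split of signal between them is uncertain. Of 10 trithorax group genes, 4 had one: Trl, which encodes GAGA factor, with 617, osa with 352, kis with 90.2 and trx itself with 88.4. Among 10 regulators of Hox expression, en had a peak at 94.8 and the gap gene hb had one at 89.6. The Hox cofactor gene hth, 1 of 4 on its list, had 136. Of 12 reported Hox targets, Dll had 297, dpp 96.6 and ct 78.6. These counts stood beside the 9.06% of all genes, and nothing particular to the lists is read from them. Each of these peaks was stronger than the abd-A peak at 72.5, as were most conservative peaks. Those of hb, en, trx and kis were in the thresholded list of replicate 1 only. That of E(z) was in the list of replicate 2 only, and that of ct was in neither. None of the other 15 protein-coding genes inside the Antennapedia complex had a conservative peak, and of the 3 inside the bithorax complex only MSAmiP did, through the abd-A site.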

How the data were processed

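Anti-GFP ChIP-seq of toy-eGFP embryos was analysed from 8 deposited peak lists, on dm6 per the labels: a thresholded and a ranked list for each of 2 replicates, and 2 of each kind for the series. The signal per peak and the −log10 of the global IDR are the authors' deposited values. The sources used here name no aligner, peak caller or scale of the signal. In both ranked series lists, 8 further columns could not be tied to a sample and were left unused. The main set was the conservative thresholded list, with the ranked list that contains all its peaks.

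Genes came from the Ensembl annotation of the BDGP6.54 assembly (the same sequence as dm6), and only peaks on the 7 arms were used. Summits are the second plus the tenth column, and coordinates are 1-based. Overlap means at least 1 shared base. Shares have Wilson and densities exact Poisson 95% intervals, which cover counting error only. No test was made, as there is 1 group. Work was done in python 3.11.15 with pandas 2.3.3, numpy 2.4.6 and scipy 1.17.1, and the routines were tested on simulated data. The named genes are the 8 Hox genes, other genes of the complexes nearest to a thresholded peak, and the members of 5 lists with a conservative peak. Genes named for a ranked peak or for lying under a summit were chosen after their values were seen. The genes and lists were chosen with earlier results of these data known. Of 17 listed Polycomb group symbols, calypso was not matched. The alternatives were each replicate alone, the other lists of the series, a stricter IDR and other ways of giving peaks to genes.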

Additional observations from a re-analysis of the deposited data

How the results depend on the processing

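The single Hox gene with a conservative peak, abd-A, depended on the list. The count was 0 without replicate 1, 0 without replicate 2 and 0 in the pooled list. The shares of all genes there were 7.23%, 6.18% and 11.7%. It was also 0 at an IDR of 0.001 and 0 when summits had to lie inside the gene. The count stayed at 1 with the nearest TSS alone and with a limit of 5 kb. No share of all genes is given for these other settings, so no change is read as particular to the Hox genes. The share of ranked Hox peaks at the threshold, 0.196%, was 0 under each of its 4 alternatives. Over all peaks the share was 0.988% without replicate 1, 1.19% without replicate 2 and 1.37% in the other ranked list. No such share is given at an IDR of 0.001. Leaving out 1 replicate gave between 291 and 480 ranked Hox peaks, where both gave 511. The density ratio of the Antennapedia over the bithorax complex, 1.16, was between 0.988 (reversed, replicate 2 alone) and 1.01 in the single replicates, 1.22 for summits inside the Hox genes and 1.04 for peaks at or above the median signal. The ratio of median signal, 0.897, was between 0.974 and 0.990 in the single replicates, 0.881 in the other ranked list, 0.933 for peaks given to the Hox genes and 0.978 for peaks at or above the median. The highest signals of the 8 genes moved in none of 8 cases in the other ranked list and in all 8 with either replicate alone, whose highest signal was lower for each gene. The median highest signal over all genes with a ranked peak was lower there too. It was 24.3 in replicate 1 and 23.6 in replicate 2, against 41.3 in the series list. The causes were not tested. No paired analysis was possible because there is a single group. Read depth is unknown, so weak sites cannot be given a limit.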

Other observations

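A stretch of Ubx held no summit of any ranked peak in any of the 4 ranked lists. It ran from 16703263 to 16716822 on 3R, 13.6 kb, with no unknown bases in the assembly and 22.7% of its bases soft-masked as repeats. For comparison, the summits of the 4 ranked lists were merged on all arms, so a site present in several lists counted several times. Of the 462665 gaps between neighbouring merged summits, 290 were at least as long, and the median gap was 57 bp. These values do not measure how rare such a stretch is in a single list. The longest such stretch of the Antennapedia complex was 6.002 kb, from 6819072 to 6825074, at the 3′ end of Scr, and 1130 gaps were at least as long.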
